A study of Mus musculus with 24 samples.

Results

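The genes described here are 10 that encode the laminin network of the basement membrane and the molecules that link it. They are the laminin α chains Lama2, Lama3, Lama4 and Lama5, the β chains Lamb1 and Lamb2, the γ chain Lamc1, the nidogens Nid1 and Nid2, and perlecan (Hspg2). They were taken by name, as 10 of the 22282 genes in the files, and all 10 were among the 14964 genes with a mean of at least 1 FPKM (fragment counts scaled by transcript length and, here, by the upper quartile of each library) that were tested. Each had a single RefSeq transcript in the files. RNA sequencing of 24 libraries followed the conversion of mouse amniotic cells to endothelium, with 3 libraries in each of 8 groups on a C57BL/6J background. MACs were amniotic fluid cells grown from E11.5 to E13.5 embryos, and RACVECs were such cells given lentiviruses for the Ets factors Etv2, Erg and Fli1. Akt-MACs and Akt-RACVECs also received a constitutively active, myristoylated Akt, and Sox17-RACVECs received the 3 Ets factors and Sox17. Akt-LECs and Akt-liver ECs were adult lung and liver endothelial cells that carried the same Akt and were grown in culture, whereas LSECs were liver endothelial cells sorted straight from the animal, with no culture and no Akt. Converted cells were kept on fibronectin-coated plastic in endothelial medium with a TGF-β receptor inhibitor, so the factors, the medium and the time in culture cannot be told apart between MACs and RACVECs.

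A laminin is a cross-shaped trimer of 1 α, 1 β and 1 γ chain. The trimers assemble in the cell and polymerize on its surface, and the α chain carries the main binding sites for integrins and dystroglycan. Nidogens bind the γ chain and connect the laminin sheet to type IV collagen and to perlecan, a large heparan sulfate proteoglycan that also holds growth factors. In endothelium the usual α chains are the one encoded by Lama4, present in vessels from early development, and the one encoded by Lama5, which appears later and in mature vessels. The sinusoids of the liver are known for lacking a continuous basement membrane.

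The libraries were checked against their labels before the members were compared. The 8 endothelial markers summed to between 26.1 and 130 FPKM in the MACs and between 1805 and 20188 FPKM in the 18 libraries of the 6 endothelial groups. Sox17-RACVEC 2 went against its label, since Etv2 was listed at 0 there and stood at 458 and 378 FPKM in the other 2 Sox17-RACVEC libraries. Erg was 387 FPKM in Sox17-RACVEC 2 and at most 4.49 FPKM in Sox17-RACVEC 1 and 3. The 8 endothelial markers summed to 13715 FPKM in Sox17-RACVEC 2 and to 5421 and 5108 FPKM in Sox17-RACVEC 1 and 3. For this reason the text speaks of the library labelled Sox17-RACVEC 2. The Sox17 comparison and the correlations of Lama4 with Lama5 and with Nid2 are given with and without it. Erg was at most 13.8 FPKM in the 3 RACVEC libraries, whose labels name it as a transduced gene. Akt1 was 872 to 1281 FPKM in Akt-RACVECs and 607 to 694 FPKM in RACVECs. It was also high in Sox17-RACVECs, whose labels name no Akt, at 884, 1323 and 916 FPKM, and Akt-liver EC 2 and 3 had 559 and 656 FPKM, within the 551 to 692 FPKM of MACs. Sox17 itself ranged from 5.09 to 200 FPKM in Sox17-RACVECs, with a median of 40.1 FPKM. It was listed at 0 in every RACVEC library and ranged from 12.01 to 83.5 FPKM in Akt-RACVECs, whose labels name no Sox17. The lowest Sox17-RACVEC library was thus below every Akt-RACVEC library in Sox17. Markers of other cells were present in several libraries. The 10 mesenchymal markers summed to 2994 to 6558 FPKM in RACVECs, 4191 FPKM in Akt-LEC 1 and 2647 FPKM in Akt-liver EC 1, against at most 439 FPKM in the other four libraries of those 2 cultured groups. Akt-MAC 2 and Akt-MAC 3 held 1648 and 4105 FPKM of the macrophage gene Adgre1, and Akt-MAC 1 held 56.6 FPKM. Adgre1 was listed at 0 in MACs. The 4 macrophage markers in the files summed to 4061 to 6966 FPKM and the 4 hepatocyte markers to 1756 to 10380 FPKM in LSECs.

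Of the 10 genes, 4 differed among the 8 groups by limma's moderated F test at an adjusted p below 0.05, beside 54.0% of all genes tested. They were Lamb1 (adjusted p = 4.86e-06), Lamc1 (adjusted p = 2.33e-05), Lama3 (adjusted p = 0.00152) and Lama5 (adjusted p = 0.00564). In this bulk RNA, fewer cells of a type and less RNA per cell cannot be told apart.

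**Figure D1:**
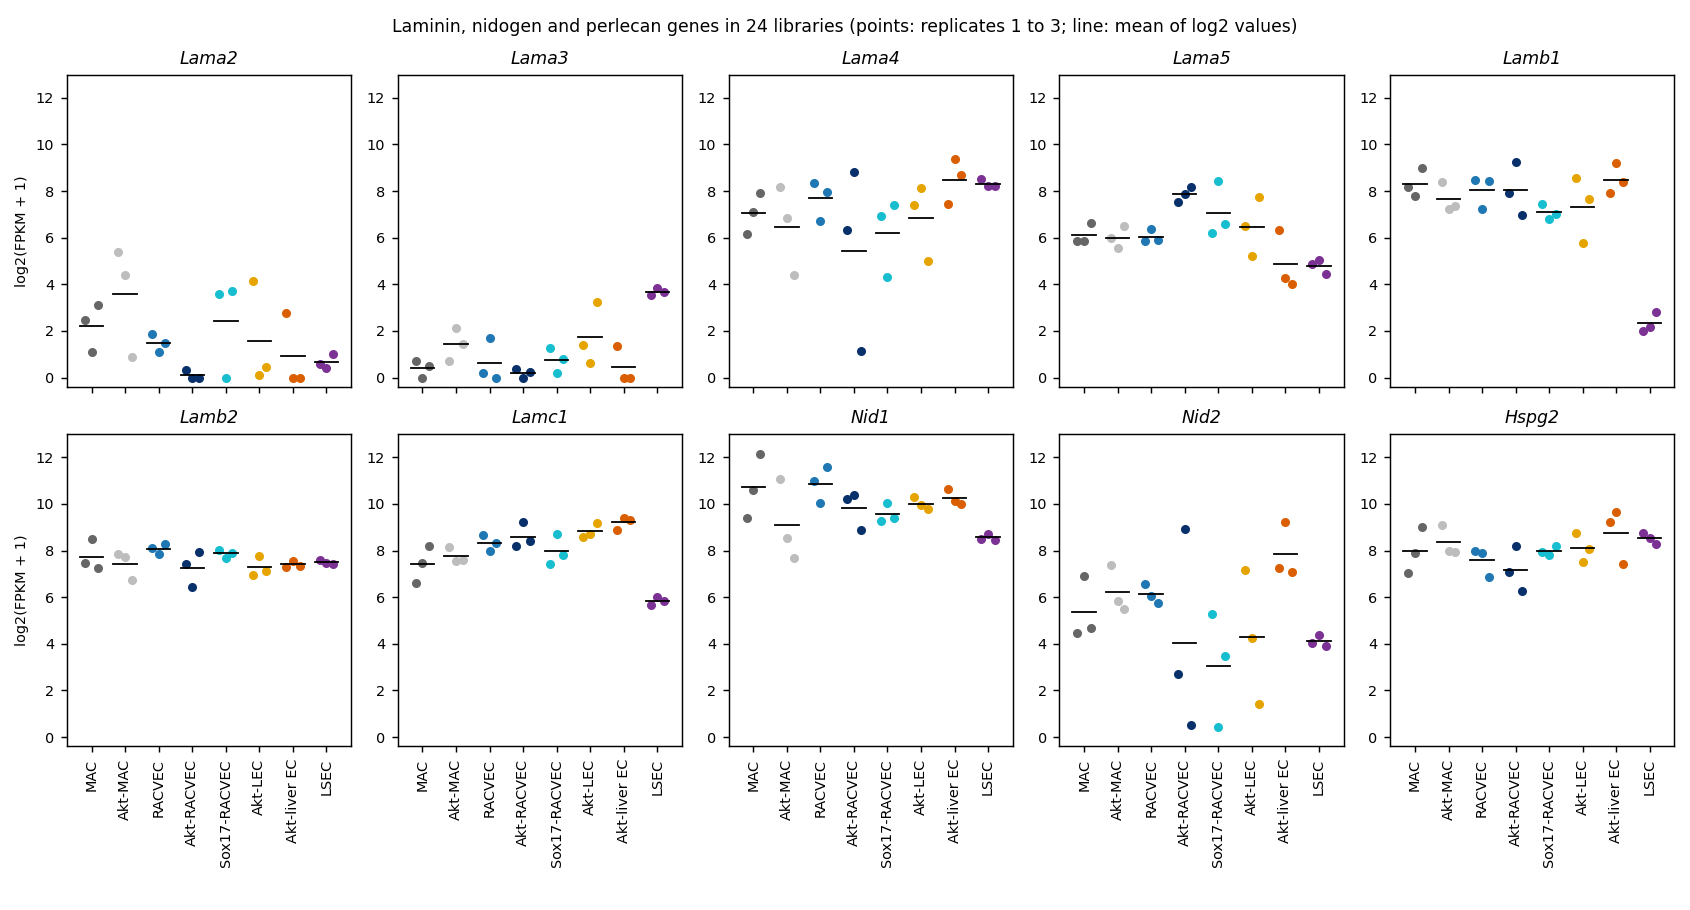
Level of each of the 10 genes, as log2(FPKM + 1), in the 24 libraries. Points are single libraries, with replicates 1 to 3 from left to right in each group, and the line is the mean of the 3 log2 values. Lamb1 and Lamc1 were lower and Lama3 was higher in every LSEC library than in every other library, while Lama4 and Nid2 varied widely within several groups.

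Among the α chains, Lama4 and Lama5 supplied nearly all transcripts in most libraries. FPKM is scaled by transcript length, so levels of different chains can be set side by side. Lama4 ranged from 1.23 to 656 FPKM, with a median of 171 FPKM over the 24 libraries. It measured 71.1, 136 and 239 FPKM in MACs, 329, 104 and 251 FPKM in RACVECs, and 368, 293 and 296 FPKM in LSECs. The LSEC libraries lay close together and above all 3 MAC libraries, and the RACVEC libraries overlapped both groups. In Akt-RACVECs it was 79.2, 450 and 1.23 FPKM, in Sox17-RACVECs 122, 18.7 and 169 FPKM, and in Akt-LECs 170, 283 and 31.0 FPKM. Each of these 3 groups thus contained a library with little Lama4, namely Akt-RACVEC 3, the library labelled Sox17-RACVEC 2 and Akt-LEC 3. Akt-MACs had 290, 114 and 20.1 FPKM and Akt-liver ECs had 172, 656 and 408 FPKM. In the order of group means, from Akt-liver ECs (412 ± 242 FPKM, SD, n = 3) and LSECs (319 ± 42.3) down to Sox17-RACVECs (103 ± 76.8), the ranges of all neighbouring groups overlapped.

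Lama5 encodes the longest laminin α chain and had its highest group mean in Akt-RACVECs (236 ± 50.8 FPKM, SD, n = 3). In mm9 it spans chr2:179911078-179960564 on the - strand. It measured 57.4, 82.6 and 58.7 FPKM in RACVECs and 185, 236 and 287 FPKM in Akt-RACVECs, so that every Akt-RACVEC library was above every RACVEC library. Levels were 57.2, 57.7 and 99.4 FPKM in MACs and 61.6, 45.7 and 89.5 FPKM in Akt-MACs, which overlapped throughout. The lowest group means were those of the liver. Akt-liver ECs had 78.4, 18.1 and 15.3 FPKM and LSECs had 28.5, 31.7 and 21.1 FPKM. Akt-LECs were spread over 88.8, 35.6 and 211 FPKM. Among Sox17-RACVECs, libraries 1 and 3 had 73.7 and 96.3 FPKM, and the library labelled Sox17-RACVEC 2 had 340 FPKM, the highest level of the series.

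Where Lama4 was scarcest, Lama5 dominated the α chain pool. Lama5 made up 99.1% of the summed α chain FPKM in Akt-RACVEC 3, 92.8% in the library labelled Sox17-RACVEC 2, 83.2% in Akt-LEC 3 and 79.4% in Akt-MAC 3. Lama4 in turn made up 97.1% and 96.2% in Akt-liver EC 2 and 3, and 88.6% ± 2.08 (SD, n = 3) in LSECs. The mean Lama4 share was 63.9% ± 9.34 in MACs and 73.0% ± 16.3 in RACVECs, and 31.5% ± 32.4 in Akt-RACVECs. Across the 24 libraries, log2(FPKM + 1) of the 2 chains had a Pearson r of -0.67, and of -0.65 over the 21 libraries without LSECs. Without the library labelled Sox17-RACVEC 2 these were -0.63 (n = 23) and -0.60 (n = 20). Libraries of a group are not independent points, and the r is given as a description. The mesenchymal markers were also summed in the libraries whose α chain pool was mostly Lama5. Of these libraries, Akt-RACVEC 3, Akt-LEC 3 and the library labelled Sox17-RACVEC 2 had mesenchymal markers summing to 6.04, 120 and 11.9 FPKM. Akt-MAC 3 had 10274 FPKM, and Akt-RACVEC 1, whose α chain pool was 67.7% Lama5, had 411 FPKM. Akt-LEC 2 was as poor in these markers (37.4 FPKM) and had an α chain pool that was 88.5% Lama4.

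**Figure D2:**
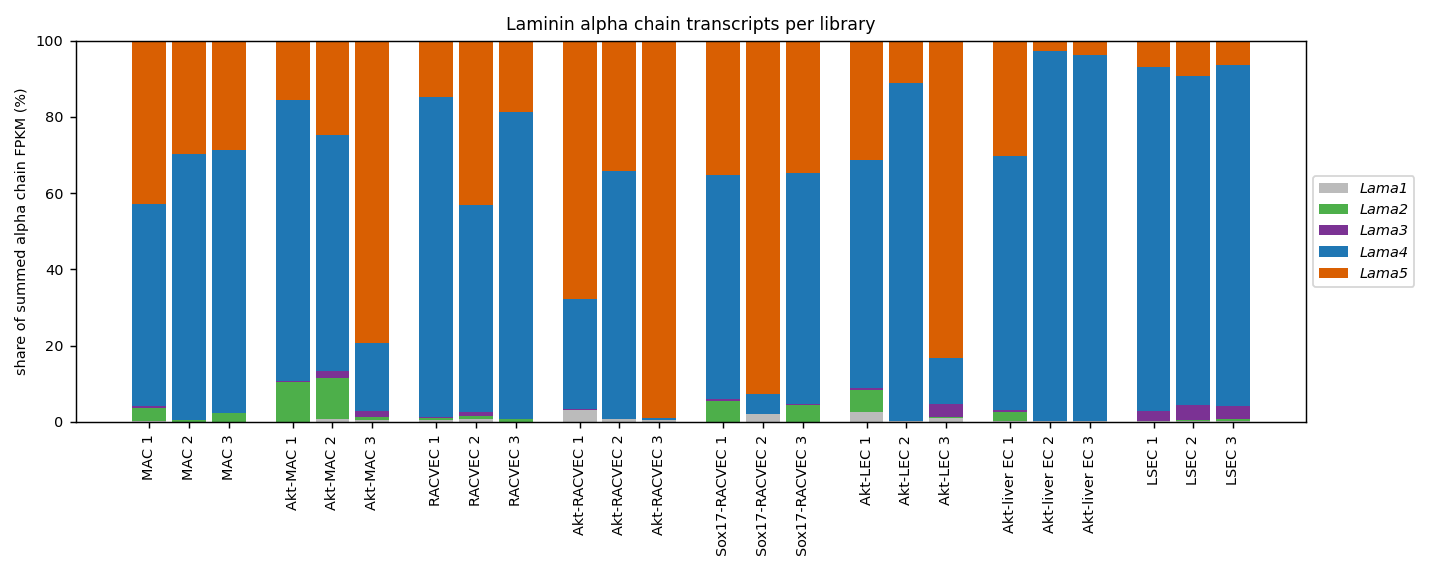
Share of each laminin α chain gene in the summed α chain FPKM, in percent, with 1 bar for each of the 24 libraries. Blue (Lama4) and orange (Lama5) fill most of every bar, Lama2 reaches 10.5% and 10.9% in Akt-MAC 1 and 2, and 5 libraries are mostly Lama5: Akt-MAC 3, Akt-RACVEC 1, Akt-RACVEC 3, the library labelled Sox17-RACVEC 2 and Akt-LEC 3.

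Lama3, known chiefly from epithelial basement membranes, was a minor chain. It measured 10.7, 13.47 and 11.6 FPKM in LSECs, where it was 3.36% ± 0.688 (SD, n = 3) of the α chain pool. The next highest library, Akt-LEC 3, had 8.53 FPKM, and 14 of the 24 libraries were below 1 FPKM. LSECs did not overlap any other group. The 6 epithelial markers summed to 36.4 to 105 FPKM in LSECs, 2.56 FPKM in Akt-LEC 3 and 131 to 1171 FPKM in RACVECs. The RACVEC sum was mostly Krt19, at 129 to 1159 FPKM, and Epcam, Cdh1 and Krt8 were listed at 0 there. In LSECs all 6 markers were at 1 FPKM or more in every library. The sum was highest in Akt-liver EC 1, at 1815 FPKM, where Lama3 was 1.59 FPKM. The part of epithelial cells in the Lama3 level was not tested.

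Lama2, the α chain of muscle and of cells around vessels, was low in most endothelial libraries. It was listed at 0 in 5 libraries and was below 1 FPKM in 12. Its highest levels were in Akt-MACs, with 41.4, 20.1 and 0.87 FPKM. In the cultured adult endothelium it was 16.7 FPKM in Akt-LEC 1 and 5.92 FPKM in Akt-liver EC 1, and at most 0.39 FPKM in the other four libraries. Those 2 libraries are the ones rich in mesenchymal markers, as given above. Over the series, the summed mesenchymal markers had a median of 261 FPKM in the 12 libraries with Lama2 below 1 FPKM and of 3149 FPKM in the other 12. The ranges, 6.04 to 10274 FPKM and 1291 to 8861 FPKM, overlapped, and Akt-MAC 3, with the highest sum, was among the libraries below 1 FPKM. Their part in the Lama2 level was not tested.

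The β chains separated LSECs from all other cells. In mm9, Lamb1 spans chr12:31950099-32014509 and Lamb2 chr9:108382193-108392861, both on the + strand. Lamb1 measured 3.00, 3.57 and 5.95 FPKM in LSECs and between 54.4 and 615 FPKM in the other 21 libraries, so LSECs did not overlap any of them. Lamb2, which encodes the β chain of mature vascular, synaptic and kidney basement membranes, was 192, 177 and 172 FPKM in LSECs and between 86.5 and 357 FPKM elsewhere. Lamb1 was therefore 2.29% ± 0.945 (SD, n = 3) of the summed β chain FPKM in LSECs, and 66.6% ± 9.37 in Akt-liver ECs. In the other six groups its mean share was between 36.6% and 60.0%.

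Lamb1 in MACs was 286, 220 and 510 FPKM, and in RACVECs 353, 151 and 345 FPKM, which overlapped. It was 238, 615 and 125 FPKM in Akt-RACVECs, 172, 110 and 129 FPKM in Sox17-RACVECs and 379, 54.4 and 199 FPKM in Akt-LECs. Sox17-RACVECs had the lowest mean of the groups other than LSECs (137 ± 31.4 FPKM, SD, n = 3), and their highest library was above the lowest RACVEC library. In the order of group means, the step from Sox17-RACVECs to LSECs was the only one where neighbouring groups did not overlap. For Lamb2, whose highest and lowest libraries were closer in ratio than those of the other members, all neighbouring groups overlapped. Lamb2 was 274, 231 and 313 FPKM in RACVECs, 169, 86.5 and 246 FPKM in Akt-RACVECs and 124, 215 and 138 FPKM in Akt-LECs.

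The Lamb1 and Lamb2 starts are shown because these paralogs parted in LSECs, and that of Lama5 because its group mean was highest in Akt-RACVECs. That of Nid1 is shown because, of the 6 windows searched, it alone held CCGGAA, a longer form of the GGAA Ets motif. Each line gives the 250 bases before the annotated start, on the strand of the gene, from RefSeq on GRCm38.p6. The table held 6 of the 10 genes (Hspg2, Lama2, Lama5, Lamb1, Lamb2 and Nid1). The windows are Lamb1 chr12:31265043-31265292 on the + strand, Lamb2 chr9:108479612-108479861 on the + strand, Lama5 chr2:180225860-180226109 on the - strand and Nid1 chr13:13437352-13437601 on the + strand. Capitals mark the GC box GGGCGG, or its complement, and the Ets sequence CCGGAA. Both strands were searched and no matches overlapped.
Lamb1: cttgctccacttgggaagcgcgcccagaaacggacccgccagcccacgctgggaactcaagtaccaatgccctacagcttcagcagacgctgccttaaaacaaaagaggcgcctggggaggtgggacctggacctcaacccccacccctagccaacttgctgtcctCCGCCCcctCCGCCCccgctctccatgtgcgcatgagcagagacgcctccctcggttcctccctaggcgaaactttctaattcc
Lamb2: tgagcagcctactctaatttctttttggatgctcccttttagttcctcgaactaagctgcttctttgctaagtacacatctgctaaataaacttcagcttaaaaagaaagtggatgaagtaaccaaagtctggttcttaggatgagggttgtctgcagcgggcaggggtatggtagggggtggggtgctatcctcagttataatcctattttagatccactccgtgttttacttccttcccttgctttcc
Lama5: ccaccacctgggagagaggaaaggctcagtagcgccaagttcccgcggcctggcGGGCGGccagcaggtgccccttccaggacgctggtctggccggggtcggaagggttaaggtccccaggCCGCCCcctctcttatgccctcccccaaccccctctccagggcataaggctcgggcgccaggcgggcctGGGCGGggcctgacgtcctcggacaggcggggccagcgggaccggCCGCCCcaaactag
Nid1: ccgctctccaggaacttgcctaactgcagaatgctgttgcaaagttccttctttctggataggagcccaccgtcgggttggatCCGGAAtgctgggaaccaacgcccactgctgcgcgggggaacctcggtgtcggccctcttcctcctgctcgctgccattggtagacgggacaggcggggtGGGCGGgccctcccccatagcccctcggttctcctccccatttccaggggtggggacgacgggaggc
The Lamb1 window had 2 GC boxes and 62.0% G and C bases, and the Lamb2 window had none and 43.6%. Lama5 had 4 GC boxes, Hspg2 had 5, Nid1 had 1 and Lama2 had none. Of all 32851 promoter windows of this length, 32.7% held a GC box. The sequence CCGGAA occurred in 1 of the 6 windows (Nid1) and in 12.03% of all windows. The shorter GGAA, the canonical Ets motif in the study, was not searched for. A window without CCGGAA may therefore still hold an Ets site. The Sox core CATTGT occurred in none of the 6 and in 10.7% of all windows. These matches describe letters in a window, not binding.

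Lamc1 encodes the γ chain found in nearly all laminins of vessels and spans chr1:155066052-155179916 on the - strand in mm9. It measured 49.4, 63.9 and 56.7 FPKM in LSECs, below the 97.1 to 675 FPKM of every other library. It was 97.1, 176 and 296 FPKM in MACs, 401, 253 and 317 FPKM in RACVECs, 388, 420 and 575 FPKM in Akt-LECs and 473, 675 and 641 FPKM in Akt-liver ECs. Every library of the cultured adult endothelium was above every MAC library, while RACVEC 2 was below MAC 3. Akt-RACVECs had 289, 589 and 335 FPKM, Sox17-RACVECs had 172, 412 and 221 FPKM, and Akt-MACs had 285, 188 and 194 FPKM. Lamc1 made up between 85.6% and 100% of the summed γ chain FPKM in every library. In the order of group means the only neighbours without overlap were MACs (190 ± 100.2 FPKM) and LSECs (56.7 ± 7.22 FPKM).

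Set against the α chains, β and γ transcripts were few in LSECs. The summed γ chain FPKM was 0.162 ± 0.0352 (SD, n = 3) per unit of summed α chain FPKM in LSECs, and the group means were between 0.854 and 1.68 elsewhere. The summed β chain FPKM was 0.515 ± 0.0322 per unit of α chain FPKM in LSECs, against group means of 1.26 to 2.78 elsewhere. No LSEC library overlapped any of the other 21 libraries in either ratio. Library totals cancel in these ratios, and the ratios describe transcripts, not assembled trimers.

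**Figure D3:**
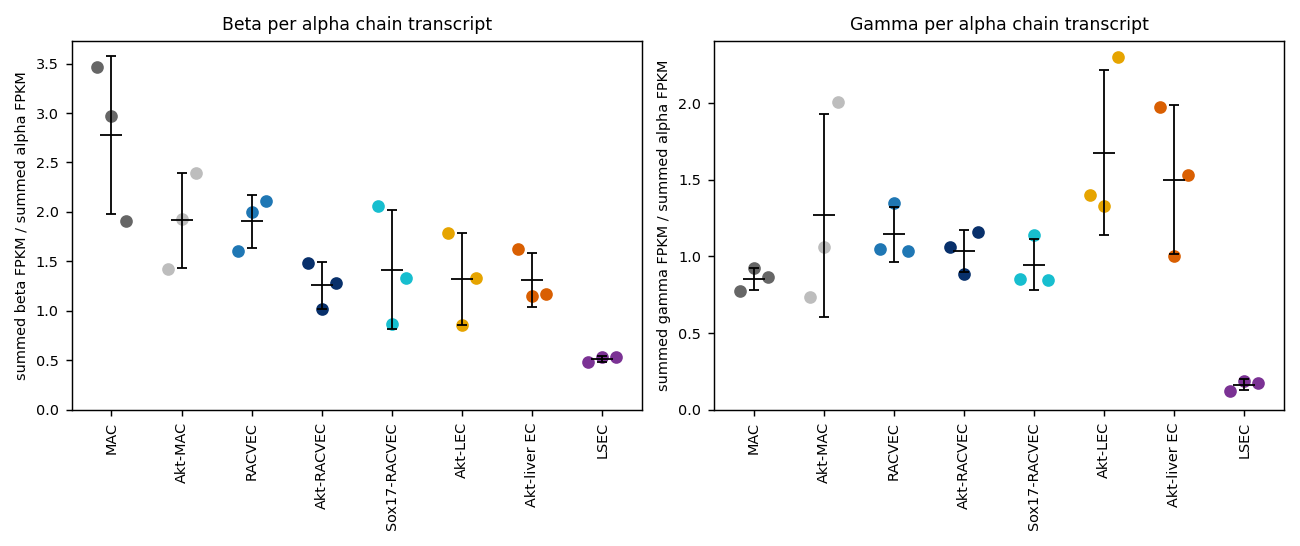
Summed β chain FPKM (left) and summed γ chain FPKM (right) divided by the summed α chain FPKM in each library, on linear axes from 0. Points are libraries, and bars are the mean ± SD of 3 libraries. All 3 LSEC libraries lie below all 21 other libraries in both panels.

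Nid1 was the most abundant member, with a mean of 1207 FPKM over the 24 libraries. It was 677, 1554 and 4566 FPKM in MACs, 2016, 1047 and 3057 FPKM in RACVECs and 362, 424 and 352 FPKM in LSECs. The LSEC libraries were below all libraries of those 2 groups. Akt-MACs had 2152, 373 and 202 FPKM, and the libraries richest in macrophage markers, Akt-MAC 2 and 3, were below Akt-MAC 1. Akt-RACVECs had 1197, 1315 and 468 FPKM and Sox17-RACVECs 611, 1048 and 680 FPKM. The cultured adult endothelium was between 869 and 1617 FPKM, above every LSEC library. Among neighbours in the order of group means, only Sox17-RACVECs and LSECs did not overlap.

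Nid2 was less abundant and far more variable than Nid1. It was 5.53, 481 and 0.43 FPKM in Akt-RACVECs, 38.0, 0.34 and 10.1 FPKM in Sox17-RACVECs and 141, 18.1 and 1.70 FPKM in Akt-LECs. The lowest library of each of these groups was the one lowest in Lama4 as well. RACVECs were even, at 93.3, 65.7 and 52.6 FPKM, and Akt-liver ECs had 152, 597 and 136 FPKM. LSECs had 15.6, 20.0 and 13.8 FPKM, below every Akt-liver EC library. Across the 24 libraries log2(FPKM + 1) of Lama4 and Nid2 had a Pearson r of 0.70, and of 0.78 without LSECs. Without the library labelled Sox17-RACVEC 2 these were 0.65 (n = 23) and 0.75 (n = 20). Nid1 supplied at least 92.8% of nidogen FPKM in MACs and 64.9% in Akt-liver EC 2.

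**Figure D4:**
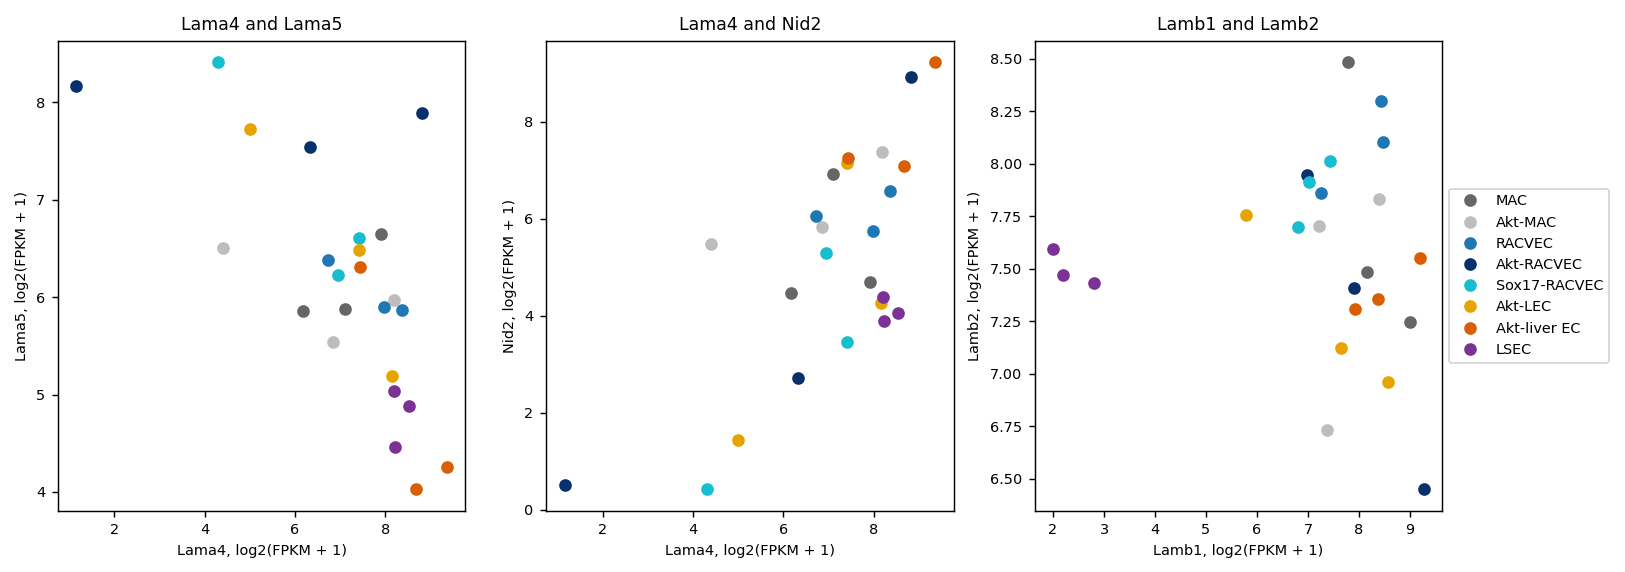
Pairs of members on log2(FPKM + 1) axes, with 1 point for each of the 24 libraries, coloured by group, and axes that do not start at 0. Lama5 tended to be higher where Lama4 was lower (left), but Akt-RACVEC 2 was high in both (Lama4 450 FPKM, Lama5 236 FPKM). Nid2 was lowest in Akt-RACVEC 3, the library labelled Sox17-RACVEC 2 and Akt-LEC 3, which also had little Lama4 (middle). The LSEC libraries stand apart in Lamb1 and not in Lamb2 (right).

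Perlecan (Hspg2) was expressed throughout, between 76.5 and 811 FPKM. It measured 131, 234 and 508 FPKM in MACs, 249, 237 and 116 FPKM in RACVECs and 435, 374 and 310 FPKM in LSECs. Akt-RACVECs had 135, 289 and 76.5 FPKM and Akt-liver ECs had 601, 811 and 171 FPKM. All neighbouring groups overlapped in the order of means, and Hspg2 was not called in any of the 10 comparisons.

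Culture and Akt against direct sorting gave the largest differences. Between Akt-liver ECs and LSECs, Lamb1 and Lamc1 were higher in Akt-liver ECs and Lama3 was lower. These 2 of 10 higher and 1 of 10 lower compare with 14.1% higher and 12.9% lower among all genes tested. Lamb1 differed by 6.17 on the log2 scale (SE 0.62, adjusted p = 4.30e-07, limma), or 92.5-fold in mean FPKM. Lamc1 differed by 3.36 (SE 0.37, adjusted p = 1.21e-06), or 10.5-fold. Lama3 differed by -3.23 (SE 0.60, adjusted p = 0.000453), and its size ranged from -5.54 with a pseudocount of 0.1 to -1.06 with 10. Nid1 (1.69, SE 0.70, adjusted p = 0.0708) and Nid2 (3.75, SE 1.65, adjusted p = 0.0874) did not pass, although no Akt-liver EC library overlapped an LSEC library. Both passed when the fit held these 2 groups alone (adjusted p = 0.00209 and 0.00310), with the replicate number as a block as well (adjusted p = 0.00763 and 0.00436). Over all alternatives the adjusted p ran from 0.00209 to 0.185 for Nid1 and from 0.00310 to 0.232 for Nid2. Over the 10 members the median difference was 0.25, beside 0.08 over all genes tested.

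The other five members did not pass between Akt-liver ECs and LSECs. Their mean levels were 1.97 and 0.607 FPKM for Lama2, 412 and 319 FPKM for Lama4, 37.3 and 27.1 FPKM for Lama5, 169 and 180 FPKM for Lamb2 and 527 and 373 FPKM for Hspg2, with Akt-liver ECs first. Without Akt-LEC 1 and Akt-liver EC 1 the same 3 genes (Lama3, Lamb1 and Lamc1) were called. The study's own criterion called Lama3, Lamc1 and Nid1, and not Lamb1. Markers of other cells moved with this contrast. The 4 hepatocyte markers summed to 0 to 52.4 FPKM in Akt-liver ECs and 1756 to 10380 FPKM in LSECs, and the 4 macrophage markers to 0 to 95.7 FPKM and 4061 to 6966 FPKM. The part of these cells in the 3 results was not tested. Culture, Akt and the sorting method cannot be told apart here.

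For conversion with the Ets factors no member passed, which with 3 libraries a group does not show equal levels. Between RACVECs and MACs, 0 of 10 members were called by limma, beside 1.36% of all genes higher and 1.35% lower, and 1 member had an unadjusted p under 0.05. That was Lamc1, with a difference of 0.88 (SE 0.37, adjusted p = 0.193, limma). No member was free of overlap between these groups, and the study's own criterion called 0. Levels of the remaining members overlapped throughout, with log2 differences from -0.75 to 0.76. The median over the members was 0.19, and over all genes tested it was 0.00.

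Cultured adult endothelium had more Lamc1 than MACs. Cell type, adult or embryonic origin, the added Akt and the medium cannot be told apart in this comparison. Taking the cultured lung and liver groups together, 1 of 10 members was higher and 0 were lower, beside 7.30% and 7.51% of all genes tested. Lamc1 was higher by 1.58 (SE 0.32, adjusted p = 0.00254, limma) and higher in 6 of 6 cultured libraries than in every MAC library. It was called under all 17 alternatives, between 1.18 and 1.97. Without Akt-LEC 1 and Akt-liver EC 1 it was also called. Between RACVECs and Akt-LECs, 0 members were called by limma, beside 0.0267% higher and 0.234% lower over all genes, and 1 had an unadjusted p under 0.05. Lamb2 differed by 0.81 there (SE 0.35, adjusted p = 0.396), with all RACVEC libraries above all Akt-LEC libraries.

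Akt in RACVECs was followed by higher Lama5 in all 3 libraries, a difference that did not pass the correction. Between Akt-RACVECs and RACVECs, 0 of 10 members were called by limma, beside 0.221% of all genes higher and 0.0401% lower, and 2 had an unadjusted p under 0.05. An unadjusted p under 0.05 with a change past 1 was found for 1501 of the 14964 genes tested. Among the members only Lama5 had both. Lama5 differed by 1.82 (SE 0.62, adjusted p = 0.165), and over the 13 alternatives the adjusted p ran from 0.0497 to 0.355. It reached 0.0497 in the fit of these 2 groups alone, and was 0.0999, not a call, once replicate number was added to it as a block. Lama5 was the 1 member that met the study's own criterion. Lamb2 differed by -0.82 (SE 0.35, adjusted p = 0.263) and overlapped between the groups. The summed mesenchymal markers were 6.04 to 411 FPKM in Akt-RACVECs and 2994 to 6558 FPKM in RACVECs, and their part in the Lama5 difference was not tested.

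In amniotic cells without Ets factors, Lama5 overlapped between Akt-MACs and MACs. Between Akt-MACs and MACs, 0 of 10 members were called by limma, beside 2.59% higher and 0.214% lower over all genes, and 1 had an unadjusted p under 0.05. Nid1 differed by -1.63 (SE 0.70, adjusted p = 0.288), by -2.61 without Akt-MAC 1 (adjusted p = 0.0138), and by 0.35 without Akt-MAC 2 and 3. The last value compares Akt-MAC 1 alone (2152 FPKM) with MACs, whose range it lies in, so Akt-MACs have no spread of their own there. The 4 macrophage markers summed to 2125 and 5573 FPKM in Akt-MAC 2 and 3. They still summed to 74.5 FPKM in Akt-MAC 1, against at most 0.79 FPKM in MACs. The difference between the Akt effects in RACVECs and in MACs was tested as an interaction, which called 0 members, beside 0.00668% higher and 0.0936% lower. For Lama5 it was 1.94 (SE 0.88, unadjusted p = 0.0405, adjusted p = 0.388, limma), so a different response was not shown. Scaling the libraries moved the median of all genes in this interaction by 0.10.

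Sox17 in RACVECs called 0 of 10 members by limma, beside 0% of all genes higher and 0.00668% lower, and 0 members had an unadjusted p under 0.05. Over all genes, 704 had an unadjusted p under 0.05 and a change past 1. The Sox17-RACVEC libraries differed widely in Sox17 itself, as given above, so the comparison does not rest on an even level of Sox17. Nid2 was lower in all 3 Sox17-RACVEC libraries than in all RACVEC libraries and was the 1 member that met the study's own criterion. Its log2 difference was -3.06 (SE 1.65, unadjusted p = 0.0797, adjusted p = 0.811, limma). Without the library labelled Sox17-RACVEC 2, the Nid2 difference was -1.75 (SE 1.76) and Nid2 did not meet that criterion. The 1 member that then met it was Lama2, with a difference of 2.17 (SE 1.20) in place of 0.95 (SE 1.19). Lama2 was 11.2 and 12.02 FPKM in Sox17-RACVEC 1 and 3, listed at 0 in the library labelled Sox17-RACVEC 2, and 2.66, 1.15 and 1.78 FPKM in RACVECs. Lama5 differed by 1.03 (SE 0.62) with that library and by 0.36 (SE 0.62) without it, Lama4 by -1.47 (SE 1.40) and -0.51 (SE 1.52), and limma called 0 members without it. The Lama5 mean of the group was 170 ± 147 FPKM (SD, n = 3) with it, and the other two libraries had 73.7 and 96.3 FPKM. The summed mesenchymal markers were 1291 and 2383 FPKM in Sox17-RACVEC 1 and 3, 11.9 FPKM in the library labelled Sox17-RACVEC 2 and 2994 to 6558 FPKM in RACVECs, and their part in these differences was not tested.

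For lung and liver endothelium, both in culture with Akt, Nid2, Lama5 and Lama3 had the smallest p-values, and none passed. Between Akt-LECs and Akt-liver ECs, 0 members were called by limma, beside 0% higher and 0.0134% lower over all genes, and 3 had an unadjusted p under 0.05. Nid2 differed by -3.58 (SE 1.65), Lama5 by 1.60 (SE 0.62) and Lama3 by 1.29 (SE 0.60), each with an adjusted p of 1 by limma. Over all genes, 417 had an unadjusted p under 0.05 and a change past 1. Between Akt-RACVECs and Akt-LECs, 0 members were called, beside 0% higher and 0.00668% lower over all genes, where 623 had an unadjusted p under 0.05 and a change past 1. Of the members, 2 had an unadjusted p under 0.05: Lama3 (-1.55, SE 0.60, adjusted p = 0.438) and Lama5 (1.40, SE 0.62, adjusted p = 0.532). The study's own criterion called 0 members in these 2 comparisons, in RACVECs against Akt-LECs and in Akt-MACs against MACs.

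**Figure D5:**
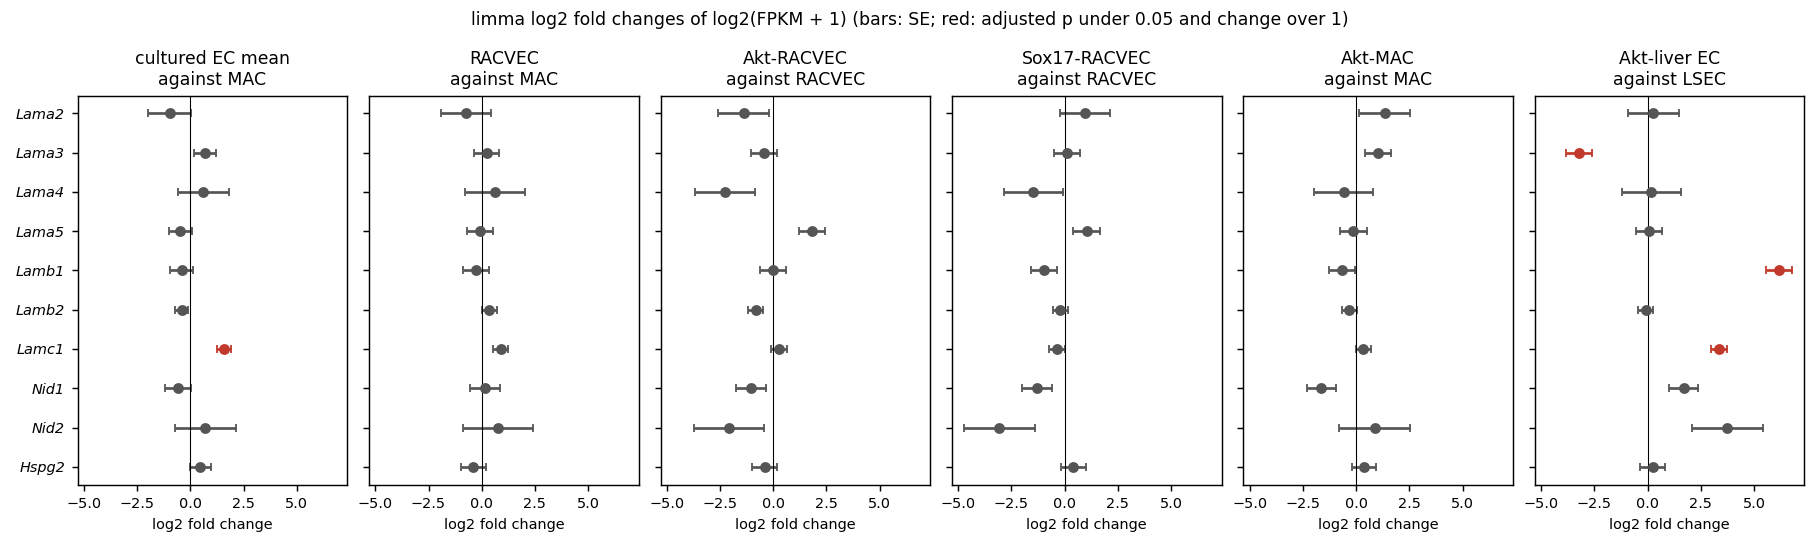
limma log2 fold changes of the 10 members on the log2(FPKM + 1) scale in 6 comparisons, with bars for the SE. Red points passed an adjusted p of 0.05 and a change over 1: Lamc1 in cultured endothelium against MACs, and Lama3, Lamb1 and Lamc1 in Akt-liver ECs against LSECs.

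The balance within each pair of chains was compared directly, as 1 log2 ratio per library in 7 comparisons for each of 3 pairs. In these 21 exact two-sided permutation tests the smallest p that 3 against 3 libraries allow is 0.1, so none could reach 0.05, and the smallest adjusted p was 0.600. The log2 ratio of Lamb1 to Lamb2 was 1.09 ± 0.53 in Akt-liver ECs and -5.17 ± 0.49 in LSECs (SD, n = 3, exact p = 0.1), with no overlap. That of Nid1 to Nid2 was 2.40 ± 1.34 and 4.46 ± 0.12 in the same groups (n = 3, exact p = 0.1), again with no overlap. The log2 ratio of Lama4 to Lama5 was 3.62 ± 2.18 and 3.52 ± 0.31 there. It was 1.64 ± 1.15 in RACVECs and -2.43 ± 4.11 in Akt-RACVECs (n = 3, exact p = 0.2), which overlapped.

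The other genes of the basement membrane were read from 4 lists with 38 genes, of which 35 were tested. Between Akt-liver ECs and LSECs 11 of the 35 were higher and 1 was lower, beside 14.1% and 12.9% of all genes tested. Among the 19 matrix genes, 17 of them tested, 5 were higher in Akt-liver ECs. These were the type IV collagen chains Col4a1, Col4a2 and Col4a5, Col18a1, the source of endostatin, and Npnt, an integrin ligand. Col18a1 was 586, 3734 and 1939 FPKM in Akt-liver ECs and 2.98, 3.24 and 12.4 FPKM in LSECs, a log2 difference of 8.06 (SE 1.02, adjusted p = 7.39e-06, limma). Col4a1 was 3102, 2192 and 1662 FPKM against 639, 747 and 608 FPKM, and differed by 1.76 (SE 0.47, adjusted p = 0.00693). Neither gene overlapped between the groups.

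Some laminin receptors and heparan sulfate enzymes also differed there. Of 7 receptors, 3 were higher in Akt-liver ECs, beside 14.1% of all genes tested. Itga3, an integrin chain for Lama5-containing laminins, was 494, 405 and 499 FPKM against 2.46, 3.40 and 3.55 FPKM in LSECs, a log2 difference of 6.82 (SE 0.84, adjusted p = 5.72e-06, limma). Itga6 differed by 2.91 (SE 0.79, adjusted p = 0.00828) and its partner Itgb4 by 4.72 (SE 1.49, adjusted p = 0.0195). Of 8 enzymes, Sulf2, which trims heparan sulfate, was higher by 6.13 (SE 0.66, adjusted p = 9.58e-07). Hpse, which cleaves heparan sulfate, was the 1 lower gene, with 14.6, 2.53 and 10.9 FPKM in Akt-liver ECs and 247, 233 and 243 FPKM in LSECs.

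Against MACs, the cultured endothelium had 6 of the 35 genes higher and 1 lower, beside 7.30% and 7.51% of all genes tested. Col4a1 (2.24, SE 0.40, adjusted p = 0.00115, limma) and Col4a2 (2.11, SE 0.41, adjusted p = 0.00192) were higher, as were the collagen cross-linking enzyme Pxdn, the endothelial matrix genes Egfl7 and Mmrn2, and Itga3. Smoc2, a secreted calcium-binding protein, was lower by 5.28 on the log2 scale (SE 1.44, adjusted p = 0.0157). Between RACVECs and MACs, Egfl7 was the 1 gene called, higher by 4.64 (SE 0.55, adjusted p = 8.36e-05), beside 1.36% higher and 1.35% lower over all genes. In the other 7 comparisons limma called 0 of the 35 genes, and between 2 and 10 had an unadjusted p under 0.05.

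For each member, the genes with the most similar pattern over the 24 libraries were found by Pearson r of log2(FPKM + 1). The points share libraries and groups, and r is a description. Lamb1 was closest to Mex3a (0.96), Ptk7 (0.94) and Ywhag (0.94), and Lamc1 to Ccdc120 (0.92), Slc7a1 (0.91) and Setd1a (0.89). Lama3 was closest to Batf2 (0.88), Gstm3 (0.86) and Abcg3 (0.86), Lama2 to Bcl2l15 (0.85), Pkp1 (0.82) and Rab39b (0.80), and Lama4 to Fam135a (0.87), Gypc (0.86) and Mxi1 (0.79). For Nid2, Mxi1 (0.80) came after Rfx3 (0.82) and Ndn (0.81). Lama5 was closest to the unnamed transcript NM_001168259 (0.85) and to Ugt1a7c (0.85), Lamb2 to Il17rc (0.71), Nid1 to Fancf (0.80) and Hspg2 to Adamts7 (0.78). Between members, Lamb1 and Lamc1 had an r of 0.78 over 24 libraries and of 0.27 over the 21 libraries without LSECs.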

How the data were processed

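The 24 libraries were sequenced as paired reads of 51 bp, and the authors aligned them with TopHat to mm9 and deposited Cufflinks FPKM values for 27583 RefSeq transcripts in each library, normalized to the upper quartile and corrected for sequence bias. Versions are not given in the sources used here. As only FPKM were used, sequencing depth is unknown and no counting error could be given. Of the transcripts, 26934 matched a RefSeq gene table (GRCm38.p6, used for names) and were summed per symbol to 22282 genes. No 2 libraries held identical values. The members and lists were chosen with earlier results of these data known. On log2(FPKM + 1), limma 3.58.1 in R 4.3.3 fitted all 8 groups in a single model with a variance trend, over the 14964 genes with a mean of at least 1 FPKM. A gene was called at a Benjamini-Hochberg adjusted p below 0.05 and a log2 change past 1, two-sided, in each of 10 comparisons. Fold changes on this scale understate those of low genes. Chain ratios were compared by exact permutation in scipy 1.17.1. The script was tested on simulated data. Replicates of amniotic cells were isolated separately, per the study's methods. For the adult endothelial groups the study's legends speak of individual isolates. The sources used here do not say whether these came from separate animals, so p-values may not measure the spread between animals. The named genes are the 10 members, the list genes that were called (some are not reported here), and the 3 genes closest to each member. Fold changes are printed for members with an unadjusted p under 0.05, and for all members as ranges. Outside this rule, those of Nid2, Lama2, Lama5 and Lama4 are printed for Sox17-RACVECs against RACVECs, where no member had such a p. Alternatives changed the pseudocount, the filter, the scaling, the groups in the fit, the replicate block and the libraries. Leaving out 2 libraries together, and the study's criterion without the library labelled Sox17-RACVEC 2, were chosen after seeing the data. The study's criterion was a log2 ratio of mean FPKM past 1 and an unadjusted p under 0.05. How many of all genes met it, had only an unadjusted p under 0.05, or did not overlap between groups was not computed here. Counts of members by these measures therefore have no share of all genes beside them.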

Additional observations from a re-analysis of the deposited data

How the results depend on the processing

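Lamc1 in cultured endothelium against MACs, and Lamb1, Lamc1 and Lama3 in Akt-liver ECs against LSECs, were called under every alternative in which they were tested, except that the study's criterion did not call Lamb1 there. Other counts moved as follows, and the causes were not tested. With the fit of only the groups compared, 1 member (Lama5) was called in Akt-RACVECs against RACVECs and 5 in Akt-liver ECs against LSECs. With the replicate number added to that fit as a block, these counts were 0 and 5, and no other count changed. No comparison had a correlation over 0.1 in all 3 pairs, which cannot exclude that some pairs were related. Between Akt-LECs and Akt-liver ECs, r was 0.57, 0.37 and -0.05 for replicates 1, 2 and 3. Between Akt-RACVECs and Akt-LECs it was 0.41, -0.17 and 0.18. The remaining comparisons had at most 1 pair over 0.1. A pseudocount of 10 called 4 members in Akt-liver ECs against LSECs, Nid2 being added. The number of members that differed among the 8 groups ran from 3 with a mean of at least 10 FPKM, where Lama3 was not tested, to 5. The fifth was Nid1 without MAC 1, without Akt-MAC 1 or without both Akt-MAC 2 and 3, Lama2 without Akt-MAC 3 or without both Akt-LEC 1 and Akt-liver EC 1, and Nid2 without Akt-RACVEC 2. The study's criterion called 1 member in Akt-RACVECs and 1 in Sox17-RACVECs against RACVECs, which was Nid2, and Lama2 (again 1) without the library labelled Sox17-RACVEC 2. Leaving out a library gave 0 to 1 members in Akt-MACs against MACs, the 1 being Nid1 without Akt-MAC 1. Without both Akt-MAC 2 and 3 the Nid1 difference reversed to 0.35, with 1 Akt-MAC library left. With a pseudocount of 10, the difference in the Lamb1 to Lamb2 ratio between Akt-liver ECs and LSECs was 4.80, in place of 6.26. With 3 libraries a group, unknown depth and a spread as wide as that of Nid2, absence of a call does not show equal levels.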
